A study of Mus musculus with 6 samples.

Results

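The cohesin and Ctcf genes are 10 genes: Smc1a, Smc3, Rad21, Stag1 and Stag2 of the cohesin ring, the regulators Nipbl, Wapl, Pds5a and Pds5b, and Ctcf. They were taken by name, through the array annotation, from 18193 genes that had at least 1 probe set (a group of short probes for 1 transcript) listed for exactly 1 gene symbol. The 10 genes had 34 such probe sets among 45037 tested, and the brightest probe set by its mean over the 6 arrays stood for each gene. Mouse LKS+ cells were sorted for the absence of lineage markers, for high c-Kit and for Sca-1, and include stem cells and multipotent progenitors. The wild type (WT) was measured on 3 arrays and Apcmin, with the Min allele of Apc, on 3. Apc is a scaffold of the complex that degrades beta-catenin, and Min, a germ-line allele carried in all tissues of the animal, truncates it through an early stop codon. The labels give no age, sex, strain or treatment, and name no animal for an array, so the p-values measure only the spread between these arrays.

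Cohesin is a ring of Smc1a, Smc3 and the kleisin Rad21 that holds 1 Stag subunit, either Stag1 or Stag2. It encircles DNA, ties sister chromatids together until anaphase and extrudes chromatin loops. Nipbl loads the ring and drives extrusion, Wapl opens it, and Pds5a or Pds5b bind it and assist both release and stabilisation. Ctcf, a zinc finger protein, binds DNA in a set orientation and halts the ring at loop boundaries. Cohesin genes are recurrently mutated in human myeloid neoplasms, and a lower cohesin dose alters self-renewal of mouse stem cells. The series title presents the Apcmin mouse as a model of myelodysplastic and myeloproliferative disease, so the comparison here asks whether these transcripts differ between the genotypes.

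The immature-cell markers go with the label, but some markers of other cells were also bright. All 9 measured immature-cell markers, Kit, Cd34 and Gata2 among them, were at a mean of 6 or more on the log2 intensity scale, against 3 of 18 markers of T, B, myeloid, erythroid, NK and endothelial cells (Csf1r, S100a8 and Pecam1). S100a8 was at a mean of 11.36, above each of the 9 immature-cell markers, with Csf1r at 8.33 and Pecam1 at 6.86. The 18 markers averaged 4.02 to 4.37 on the WT arrays and 3.94 to 4.15 on the Apcmin arrays, ranges that overlap. Of the 18, 15 were lower in Apcmin, beside 10374 of all 18193 genes. Most of these markers were under a mean of 6. Their part in the results was not tested. Sca-1 was not analysed here. Xist was at 2.48 on WT replicate 3 and 3.14 on Apcmin replicate 2 and at 10.63 or above on the other 4 arrays, while the Y-linked Eif2s3y was at 9.20 and 9.39 on those 2 arrays and at 1.58 or below elsewhere. Each genotype therefore held 1 array with male-like levels. Min is a single-base change, so the Apc transcript level does not check the genotype labels.

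None of the 10 genes differed between Apcmin and WT cells beyond the spread of the arrays. All 10 were well expressed, each at a mean of 8 or more on the log2 intensity scale. In Apcmin the mean was higher for 6 and lower for 4, beside 43% of all genes and 57.1% of the genes as bright that were higher. The differences ran from -0.07 to 0.25 on the log2 scale, with a median of 0.08, beside a median of -0.04 over all genes and 0.02 over the 4871 genes as bright as these. With WT replicate 2 left out the median was 0.00, with Apcmin replicate 1 left out it was -0.003 and with WT replicate 3 left out it was 0.14. In limma 0 of the 10 genes passed an adjusted p of 0.05, where 0% of all probe sets did (smallest adjusted p among the members 0.954). At an unadjusted p under 0.05 the members again gave 0, beside 3.11% of all genes and 0.534% of the genes as bright. In 0 of 10 did the Apcmin arrays all lie on one side of the WT arrays, beside 7.73% of all genes and 6.9% of the genes as bright.

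**Figure D1:**
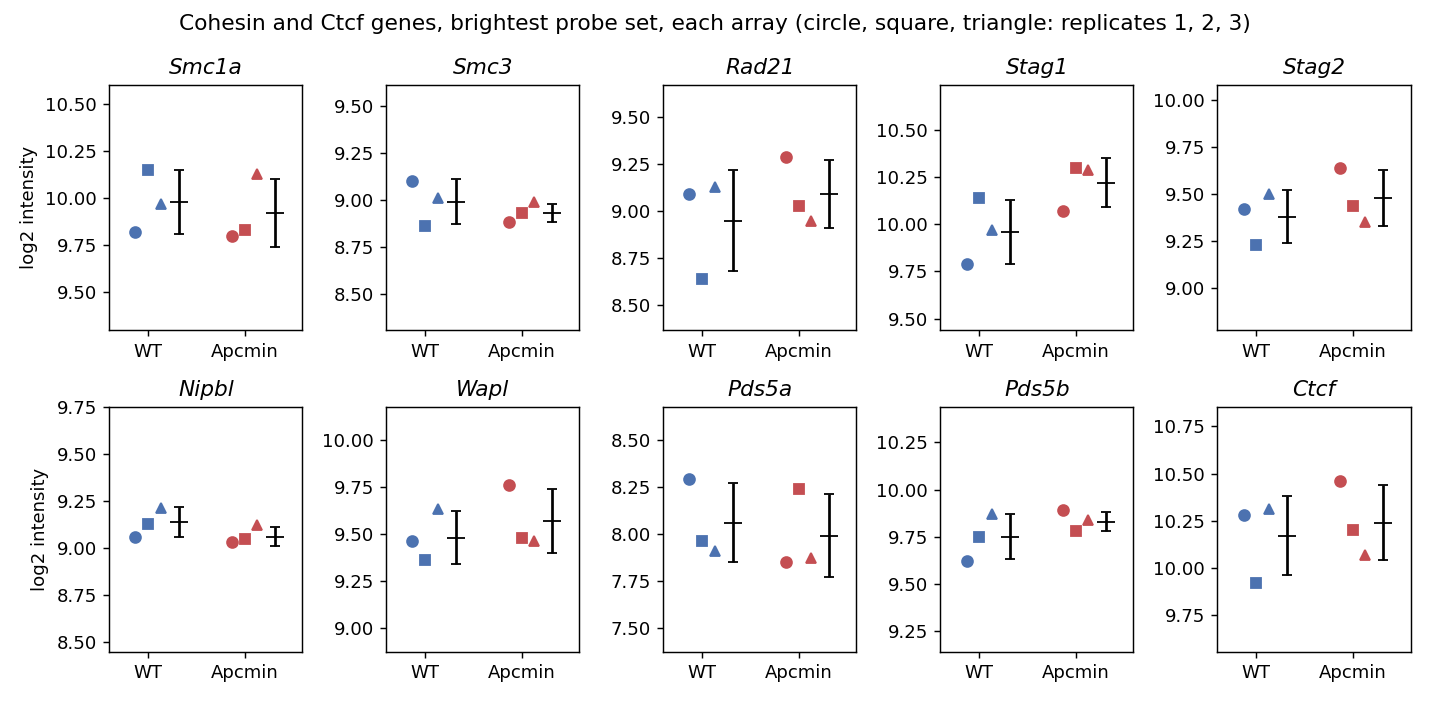
Log2 intensity (vertical axis) of the brightest probe set of each gene on each of the 3 WT and 3 Apcmin arrays, with the mean and SD of each genotype as black bars; every panel spans the same log2 range. The genotypes overlap in all 10 panels, with the least overlap in Stag1, where 1 Apcmin array (10.07) lies below the highest WT array (10.14), and in Nipbl, where 1 Apcmin array (9.12) lies above the lowest WT array (9.06).

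Of the ring's arms, Smc1a, which pairs with Smc3 at the hinge, was at 9.82, 10.15 and 9.97 on the WT arrays and 9.80, 9.83 and 10.13 on the Apcmin arrays. Both genotypes covered nearly the same range. The difference was -0.06 with a standard error (SE) of 0.17. Smc3, the arm whose acetylation locks the ring, was at 9.10, 8.86 and 9.01 in WT and 8.88, 8.93 and 8.99 in Apcmin. All 3 Apcmin values fell inside the WT range, and the difference was -0.06 (SE 0.14), or -0.12 without WT replicate 2 and 0.00 without WT replicate 1. Smc1a and Stag2 are X-linked. On the 2 arrays with male-like levels their values (9.97 and 9.83 for Smc1a, 9.50 and 9.44 for Stag2) lay inside the range of the other 4 arrays.

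Rad21, the subunit that separase cuts to free the chromatids, was at 9.09, 8.64 and 9.13 in WT and 9.29, 9.03 and 8.95 in Apcmin. WT replicate 2 stood below every other array, and the difference of 0.14 (SE 0.19) became -0.02 without it. Its representing probe set carries the _x mark, which the array maker gives to sets with probes that can match other transcripts. The next brightest Rad21 probe set, without that mark, was at 8.84, 8.46 and 9.16 in WT and 9.16, 9.04 and 9.05 in Apcmin. It was again lowest on WT replicate 2, and its difference was 0.26 (SE 0.20, unadjusted p = 0.239 in limma).

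Stag1 and Stag2 are alternative subunits that decide which DNA and protein partners the ring contacts. Stag1 was at 9.79, 10.14 and 9.97 in WT and 10.07, 10.30 and 10.29 in Apcmin. The Apcmin values were mostly higher but overlapped WT through replicate 1. The difference of 0.25 (SE 0.16) was the largest of the 10 in size, a 1.19-fold ratio with a 95% confidence interval from 0.918 to 1.55 (limma, unadjusted p = 0.155, adjusted p = 0.954). It kept its direction when each array was left out, between 0.17 and 0.34. Stag2, the paralog mutated most often in human myeloid disease, was at 9.42, 9.23 and 9.50 in WT and 9.64, 9.44 and 9.35 in Apcmin. These ranges overlapped widely, with a difference of 0.09 (SE 0.16) that was 0.01 without Apcmin replicate 1 and 0.16 without Apcmin replicate 3.

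Among the regulators, the loader Nipbl had the tightest values. It was at 9.06, 9.13 and 9.21 in WT and 9.03, 9.05 and 9.12 in Apcmin, a difference of -0.07 (SE 0.13) that stayed negative without each array. Wapl, the release factor, was at 9.46, 9.36 and 9.63 in WT and 9.76, 9.48 and 9.46 in Apcmin. Only Apcmin replicate 1 exceeded the WT range, and without it the difference went from 0.09 (SE 0.16) to -0.01.

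The Pds5 paralogs did not separate the genotypes either. Pds5a was at 8.29, 7.96 and 7.91 in WT and 7.85, 8.24 and 7.87 in Apcmin, with 1 array of each genotype standing above the rest. Its difference was -0.07 (SE 0.18), and 0.05 without WT replicate 1. Its representing probe set carries the _s mark, for probes shared between transcripts. Pds5b was at 9.62, 9.75 and 9.87 in WT and 9.89, 9.78 and 9.84 in Apcmin, with the Apcmin values bunched at the upper end of the WT range and a difference of 0.08 (SE 0.14), or 0.02 without WT replicate 1 and 0.14 without WT replicate 3.

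Ctcf, the boundary factor, was at 10.28, 9.92 and 10.31 in WT and 10.46, 10.20 and 10.07 in Apcmin. WT replicate 2 was the lowest and Apcmin replicate 1 the highest array. The difference of 0.07 (SE 0.18) became -0.05 without WT replicate 2 and -0.04 without Apcmin replicate 1.

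A p-value that misses its threshold does not show equal levels, so the width of each interval matters here. For each of the 10 genes the 95% confidence interval of the brightest probe set lay between a halving and a doubling. So it did for 83.7% of all genes and 99% of those as bright. The lower bounds of the Apcmin to WT ratio ran from 0.704 for Pds5a to 0.918 for Stag1. The upper bounds ran from 1.18 for Nipbl to 1.55 for Stag1. For 8 of the 10, all but Rad21 and Stag1, the interval also lay within 1.5-fold in either direction, beside 43.2% of all genes and 79.6% of those as bright. The bounds hold for the brightest probe sets alone, and some other sets reached past a halving or a doubling. The third brightest Stag1 set had an interval from 0.777 to 2.14. The other Pds5a sets had intervals from 0.429 to 1.8 and from 0.823 to 2.43. All these intervals are for RNA of the whole sorted population, where fewer cells expressing a gene and less RNA per cell cannot be told apart. They are set by 3 arrays a genotype, and no protein was measured.

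**Figure D2:**
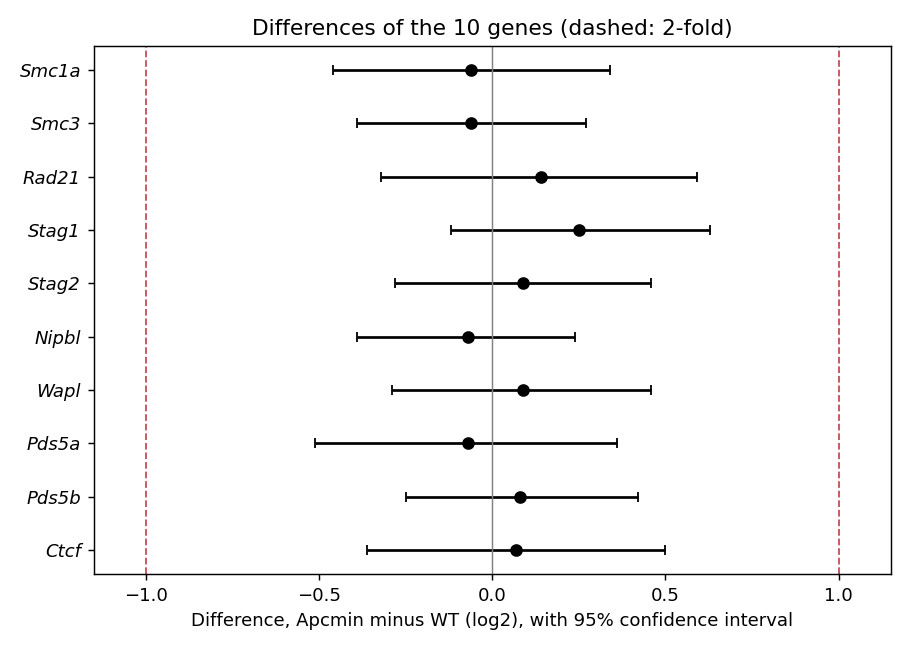
Difference in log2 intensity, Apcmin minus WT (horizontal axis), of each gene's brightest probe set, with its 95% confidence interval from limma. All 10 intervals include 0 and stay inside the dashed lines at a 2-fold change.

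Several members varied together between arrays. Rad21, Stag2, Wapl and Ctcf were each lowest on WT replicate 2 and highest on Apcmin replicate 1. That order held in 4 of the 10 members and in 11% of the 4871 genes as bright, and it was noticed after the values were seen. On WT replicate 2 the deviation from the gene's own mean was -0.38 for Rad21, -0.28 for Ctcf, -0.20 for Stag2 and -0.17 for Wapl. On Apcmin replicate 1 it was between 0.21 and 0.27 for the same genes. The low array is WT and the high one Apcmin, so leaving out either must lower the difference of any gene with this order. With one or the other left out the genotype differences of these 4 genes lay between -0.05 and 0.04. Without Apcmin replicate 1 the median over the 10 members was -0.003. Smc1a ran the other way, at 0.20 and -0.15 on those 2 arrays. Averaged over the 10 members the arrays deviated by -0.09 to 0.06, with WT replicate 2 lowest. The 3-prime to 5-prime log2 ratio depends on RNA integrity and on how far amplified RNA extends from the 3-prime end. Its part in this pattern was not tested. WT replicate 2 was at 0.84 for Actb and 0.88 for Gapdh and Apcmin replicate 1 at 0.86 and 0.91, within the ranges of 0.70 to 0.91 and 0.86 to 0.98 over the arrays.

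**Figure D3:**
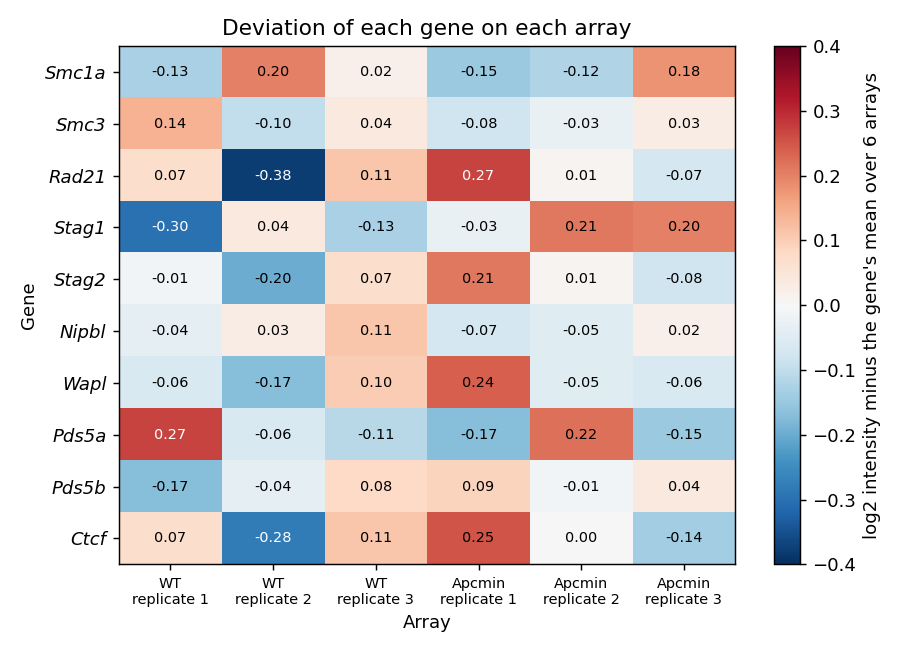
Log2 intensity of each gene on each array minus the gene's mean over the 6 arrays (colour and printed value; rows are genes, columns arrays). Rad21, Stag2, Wapl and Ctcf share a blue cell on WT replicate 2 and a red cell on Apcmin replicate 1, while the 3 arrays of a genotype do not share a colour for most genes.

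The other probe sets of these genes did not add a direction. Each of the 10 genes had probe sets on both sides of 0, and of the 24 probe sets that were not the brightest, 10 shared the sign of the brightest. Among the 28 that averaged 6 or more, 15 were higher and 13 lower in Apcmin. None of the 34 passed in limma (smallest adjusted p = 0.954). An unadjusted p under 0.05 was reached by 2 of the 34, beside 3.81% of all probe sets, and 3 did not overlap between genotypes, beside 7.88%.

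The dimmest Pds5b probe set was at 2.52, 2.21 and 2.03 in WT and 3.56, 3.29 and 2.91 in Apcmin. Every Apcmin value was higher, with a difference of 1.0 (SE 0.22, limma unadjusted p = 0.00292, adjusted p = 0.954). These are levels near the bottom of the scale, with 33.4% of all probe sets dimmer, and the file gives no detection call. The 2 brighter Pds5b probe sets differed by 0.08 and -0.07.

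Stag1 had 6 probe sets, the most of any member, and they split. The brightest 3 differed by 0.25, 0.10 and 0.37, all higher in Apcmin, and the dimmer 3 by -0.15, -0.30 and -0.74. The dimmest was at 4.39, 4.16 and 4.53 in WT and 3.10, 4.19 and 3.55 in Apcmin, overlapping through Apcmin replicate 2 (limma unadjusted p = 0.036, adjusted p = 0.954). The second dimmest was at 6.62, 6.66 and 6.66 in WT and 6.61, 5.92 and 6.50 in Apcmin, where replicate 1 lay just under the WT values. Where in the transcript each set lies was not analysed here.

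The dimmest Smc1a probe set, still bright, was lower on every Apcmin array by a small margin. It was at 9.20, 9.15 and 8.94 in WT and 8.92, 8.85 and 8.93 in Apcmin, a difference of -0.20 (SE 0.14, limma unadjusted p = 0.209). The third Smc1a probe set went the other way, with a difference of 0.16, so the 3 sets spanned 0 at similar brightness.

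Some dimmer probe sets swung far more between arrays than the brightest ones, whose within-group SD was between 0.06 and 0.23. For the Pds5a set of intermediate brightness the values were 7.65, 6.15 and 7.14 in WT and 6.69, 7.38 and 6.30 in Apcmin, a within-group SD of 0.66. The dimmest Nipbl set was at 5.37, 3.19 and 4.15 in WT and 4.20, 4.53 and 3.28 in Apcmin, an SD of 0.90. For the brightest of the 3 Wapl sets under a mean of 6 the values were 4.77, 3.86 and 4.42 in WT and 3.74, 4.83 and 3.54 in Apcmin, an SD of 0.59. In all 3 of these sets WT replicate 1 and Apcmin replicate 2 were the highest arrays. The lowest were WT replicate 2 and Apcmin replicate 3 for Pds5a and Nipbl, and Apcmin replicates 1 and 3 for Wapl. The other Wapl sets under a mean of 6, with SDs of 0.56 and 0.65, were instead highest on Apcmin replicate 1. The 3 sets given in full were picked out after their values were seen. Their genotype differences (-0.19, -0.24 and -0.31) were smaller than their within-group SDs.

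**Figure D4:**
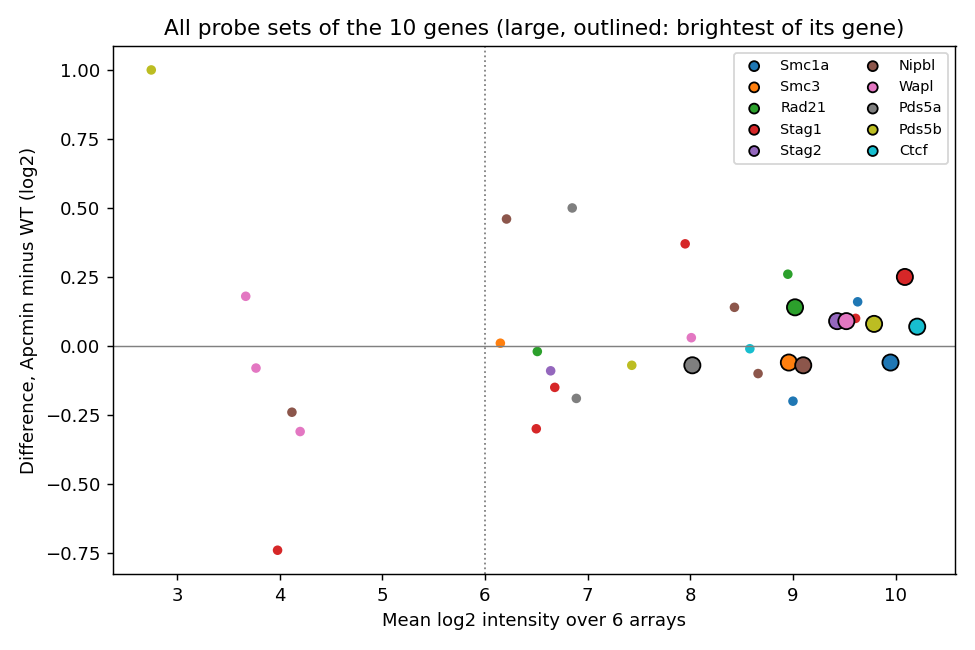
Difference in log2 intensity, Apcmin minus WT (vertical axis), against mean log2 intensity (horizontal axis) for all 34 probe sets, coloured by gene, with the brightest of each gene outlined and a dotted line at 6. The brightest sets lie between -0.07 and 0.25, and the widest differences, 1.0 for Pds5b and -0.74 for Stag1, belong to sets under a mean of 4.

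No measured gene of the list that acts on cohesin passed the test. Of 17 listed genes for loading, acetylation, protection and cleavage, 16 were measured. In Apcmin 10 were higher and 6 lower, at a median of 0.09, with 0 past an unadjusted p of 0.05, beside 3.11% of all genes. Leaving out single arrays moved that median between 0.03 (without WT replicate 1) and 0.19 (without WT replicate 3), and it was 0.04 without Apcmin replicate 1. Hdac8, the deacetylase that recycles Smc3, was the only one of the 16 whose groups did not overlap, beside 7.73% of all genes. It was at 6.19, 6.35 and 6.73 in WT and 6.77, 6.88 and 6.82 in Apcmin, a difference of 0.40 (SE 0.18, limma unadjusted p = 0.0588, adjusted p = 0.954). It was measured by 1 probe set. Of its neighbours in the cycle, Mau2, the partner of Nipbl, differed by 0.08, and Esco2, which acetylates Smc3 in S phase, by 0.24. The 6 lower genes were Esco1 (-0.02), Chtf8 (-0.05), Chtf18 (-0.10), Cdca5 (-0.11), Plk1 (-0.11) and Pttg1 (-0.15).

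Neither related SMC complex held a gene past the test, with 0 of 8 under an unadjusted p of 0.05 in each, beside 3.11% of all genes. Condensin, which compacts mitotic chromosomes, had 4 of 8 genes higher and 4 lower, with a median of 0.001 that ranged from -0.05 to 0.03 over the fits with 1 array removed. Its Ncaph2 was at 8.64, 8.71 and 8.49 in WT and 8.36, 8.44 and 8.26 in Apcmin. All Apcmin values lay below WT, by -0.26 in the mean (SE 0.14, limma unadjusted p = 0.112), and its 3 other probe sets were lower too (-0.07, -0.10 and -0.09). In those 3 sets the genotypes overlapped (limma unadjusted p from 0.513 to 0.611). Averaged over all its probe sets, Ncaph2 differed by -0.13. The Smc5/6 complex, which acts in DNA repair, had 6 of 8 higher and a median of 0.06, or 0.02 without Apcmin replicate 3. Nsmce2, its SUMO ligase, was at 8.85, 8.75 and 8.85 in WT and 8.45, 8.66 and 8.70 in Apcmin, lower on every Apcmin array (difference -0.21, SE 0.14, limma unadjusted p = 0.182). In each of these lists 1 of 8 genes did not overlap between genotypes, beside 7.73% of all genes.

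Partners of Ctcf at loops and boundaries had 7 of 9 measured genes higher and a median of 0.08, with 0 past an unadjusted p of 0.05, beside 3.11% of all genes. The median fell to 0.003 without Apcmin replicate 1 and to 0.02 without WT replicate 2, with 5 of 9 higher in each case, and was 0.05 without WT replicate 3. Top2b, a topoisomerase that sits at loop anchors, was at 9.21, 9.10 and 9.39 in WT and 9.53, 9.35 and 9.41 in Apcmin. The genotypes overlapped between 9.35 and 9.39, and the difference was 0.20 (SE 0.15), with its 2 other probe sets also higher (0.20 and 0.10). Cbx3 was the 1 gene of the 9 that did not overlap, beside 7.73% of all genes, but at a mean of 4.80 it lay under the level set for naming. Of 5 listed germ-line paralogs 3 were measured. Rec8, the meiotic kleisin, averaged 6.22 in WT (SD 0.10) and 6.18 in Apcmin (SD 0.10). Smc1b and Stag3 were dim, at means of 2.09 and 3.87, and differed by -0.01 and -0.05.

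**Figure D5:**
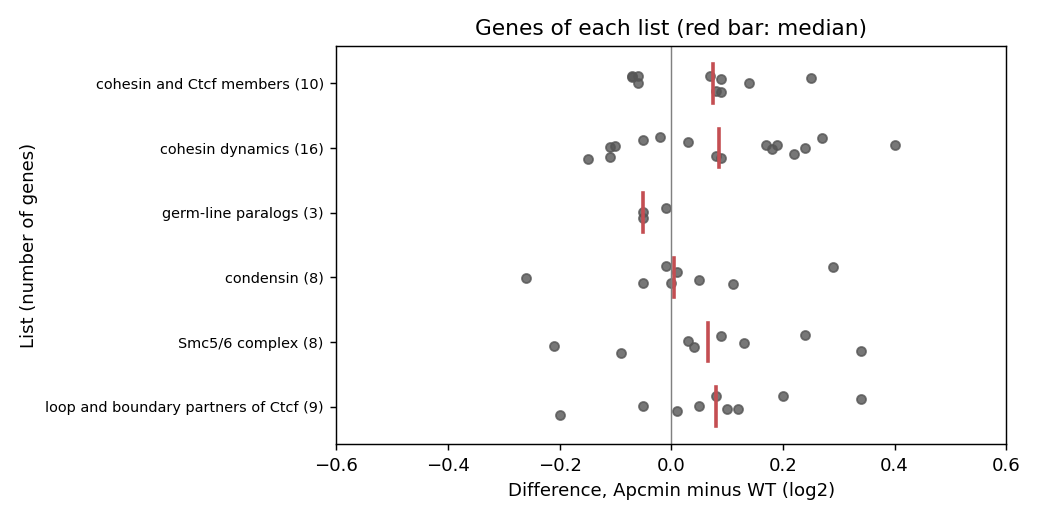
Difference in log2 intensity, Apcmin minus WT (horizontal axis), of every gene in the cohesin and Ctcf set and in 5 related lists (rows, with the number of genes measured), 1 point per gene, spread vertically only for legibility; red bars are list medians. Every point lies between -0.26 and 0.40, and the list medians with all arrays lie between -0.05 and 0.09.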

How the data were processed

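The deposited values are normalized intensities on a linear scale, 1 for each probe set on each array. They come from RMA, per the submitters' processing notes, without a version or background setting. RNA was amplified with a Nugen Ovation kit before hybridization to Affymetrix mouse genome arrays, per the labels' protocols. Here log2 was taken with no pseudocount, and 64 control probe sets were left out. Symbols came from the platform annotation and were looked up by Entrez identifier in RefSeq (GRCm38.p6). Of 34945 probe sets with 1 symbol, 34741 matched.

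The genotypes were compared in limma 3.58.1 (lmFit, eBayes, no term besides genotype), with p-values adjusted by Benjamini-Hochberg over 45037 probe sets at a threshold of 0.05. The limma step was tested on simulated data. Lists were described by counts and medians, with no test. From each related list the text names, with full values, up to 4 genes whose genotypes did not overlap and whose higher mean was at least 6, or else the gene with the smallest p. The genes given without a p-value (Mau2, Esco2, Esco1, Chtf8, Chtf18, Cdca5, Plk1, Pttg1, Cbx3, Smc1b and Stag3) were added after their values were seen. The members and lists were chosen with earlier results of these data known. Some of the listed genes and markers are not analysed here.

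The alternatives were another probe set or the mean of all sets of a gene, a further quantile normalization, array medians, a pseudocount of 16, filters at a mean of 6 and at the median, a floor at 4, a mean-variance trend, array weights, the replicate number as a block, a Y-linked covariate and each array left out. Median log2 intensities of the arrays were between 4.12 and 4.18. The number of arrays limits the precision.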

Additional observations from a re-analysis of the deposited data

How the results depend on the processing

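No member passed an adjusted p of 0.05 under any alternative run (smallest adjusted p = 0.586 in limma). That is not particular to the members. With all arrays, and in each fit with 1 array left out, 0 of all probe sets passed. Away from leave-one-out and single probe sets there were 120 member differences. The filters, the floor, the mean-variance trend and the replicate block leave these differences as they are, so they could not change a sign. Of the 120, 4 changed sign, all where a gene's probe sets were averaged: Stag1 -0.08, Nipbl 0.04, Wapl -0.02 and Pds5a 0.08. That setting also moved the members' median from 0.078 to 0.015. It put 1 member, Pds5b, under an unadjusted p of 0.05, and a mean-variance trend put 1, Stag1, there (limma, adjusted p = 0.93 and 0.949). The share of all genes under that p in these 2 settings is not given here. The averaged Pds5b difference of 0.34 includes the dimmest set, at a mean of 2.75, which differed by 1.0. The 2 brighter Pds5b sets differed by 0.08 and -0.07. Leaving out 1 array moved the median between -0.003 and 0.143 and the number higher between 4 and 7, and turned 6 of 60 differences, over ranges of -0.17 to 0.03 for Smc1a, -0.02 to 0.23 for Rad21, -0.01 to 0.16 for Wapl, -0.20 to 0.05 for Pds5a and -0.05 to 0.16 for Ctcf. Single probe sets of opposite sign to the brightest gave 0.16 for Smc1a, 0.01 for Smc3, -0.02 for Rad21, -0.15, -0.30 and -0.74 for Stag1, -0.09 for Stag2, 0.14 and 0.46 for Nipbl, -0.31 and -0.08 for Wapl, 0.50 for Pds5a, -0.07 for Pds5b and -0.01 for Ctcf. The medians of the related lists ranged with 1 array left out from 0.033 to 0.187 for genes that act on cohesin, -0.046 to 0.029 for condensin, 0.023 to 0.075 for Smc5/6, 0.003 to 0.119 for partners of Ctcf and -0.103 to 0.006 for germ-line paralogs. Germ-line paralogs went from 0 to 1 higher of 3 with a further quantile normalization (1) and a floor at 4 (1), and to 1 to 2 when an array was left out. The causes were not tested.

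Deviations of same-numbered arrays of the 2 genotypes correlated at 0.08, -0.06 and -0.26, where differently numbered arrays lay between -0.17 and 0.22. With 3 arrays a genotype these values cannot show whether the numbers pair arrays, and the labels do not say. With the replicate block the members' median was 0.078, 6 were higher and 0 had an unadjusted p under 0.05, and no other call changed. Brightest probe sets without an _x or _s mark, an alternative chosen after seeing the data, changed the set for Rad21 and Pds5a and left the median at 0.078. Over all genes, 12.9% had an unadjusted p under 0.05 without WT replicate 3, against 3.11% with all arrays.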
